A study of Mus musculus with 8 samples.

Results

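The genes described here encode the enzymes that place methyl groups on the lysines of histones and those that take them off again, measured in the hippocampus of adult mice heterozygous for Kat6a (Kat6a+/-) and of wild-type mice (WT). Members were taken by name from the protein-coding genes of the deposited table: the Kdm1 to Kdm8, Kmt2, Kmt5, Setd and Smyd1 to Smyd5 series, Setdb1, Setdb2, Ezh1, Ezh2, Nsd1, Nsd2, Nsd3, Ehmt1, Ehmt2, Suv39h1, Suv39h2, Ash1l and Dot1l, with the Y-linked Kdm5d left out. This gave 51 genes of 54532 listed, 34 on the methyltransferase side and 17 on the demethylase side. No expression value was used to choose them. Of the 51 genes, 49 had a mean of at least 0.5 FPKM (fragments per kilobase of exon, scaled here by a size factor for each library) over the 8 libraries and were tested. The muscle gene Smyd1 and the histone demethylase gene Kdm4d lay under that minimum.

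Methyl marks on histone lysines are read by other proteins, and what they accompany depends on the residue. Methylation of H3K4 is found at active promoters and enhancers, that of H3K36 and H3K79 along transcribed genes, and that of H3K9, H3K27 and H4K20 mostly in silent or condensed chromatin. Nearly all the methyltransferases carry a catalytic SET domain, Dot1l being the exception. The demethylases are either flavin-dependent amine oxidases, the KDM1 enzymes, or oxygenases with a JmjC domain. Several of these genes, among them KMT2A, KMT2D, EHMT1, NSD1, KDM5C and KDM6A, are known in humans as causes of intellectual disability syndromes. KAT6A itself belongs to the MYST acetyltransferases and works in a complex with BRPF proteins, ING5 and MEAF6.

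Bulk RNA sequencing was made from hippocampal tissue in 8 libraries, 4 from Kat6a+/- mice and 4 from WT mice. The labels give the genotype and the tissue. The sources used here do not give the kind of Kat6a allele, the litters, the sex or any age beyond adult. Nothing in the labels ties each library to its own animal, and p-values therefore measure a spread between libraries that may be partly technical. In bulk tissue, fewer cells of a type and less RNA per cell cannot be told apart.

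Depth is taken here as the sum of reads over the listed genes. It ran from 17730609 to 27875310 reads in the Kat6a+/- libraries and from 16462428 to 22047643 reads in the WT libraries, with Kat6a+/- replicate 1 the deepest. The 51 genes together took 0.335% to 0.355% of these reads in a library, 56867 to 95548 reads. Ddx3y, a Y-linked gene, measured 10.4 to 12.1 FPKM in every library, and Xist, the RNA of the inactive X chromosome, 0 to 0.027 FPKM, a pattern of male tissue in both genotypes. The targeted gene Kat6a measured 6.06, 7.64, 7.32 and 7.06 FPKM in Kat6a+/- replicates 1 to 4, against 9.35, 8.97, 8.55 and 9.71 FPKM in WT replicates 1 to 4. The values of the genotypes did not overlap, so every library lay on the side of its label. The mean in Kat6a+/- was 76.7% of that in WT. The log2 fold change of Kat6a was -0.36 ± 0.07 (SE), with an exact two-sided permutation p of 0.0286, the smallest that 4 against 4 allows. Across all genes Kat6a did not pass in limma (adjusted p = 0.9998) or in edgeR (adjusted p = 0.451), and passed in DESeq2 (adjusted p = 0.00639).

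No gene of the family was called different between Kat6a+/- and WT hippocampus. At an adjusted p under 0.05, limma called 0 of the 49 tested members, where it called 0% of the 14159 genes tested. At an unadjusted p under 0.05 limma had 0 members, where 4.41% of all tested genes lay under it, and the smallest p of a member was 0.144. The counts were the same with the reads themselves: edgeR had 0 members at an adjusted and 0 at an unadjusted p under 0.05 (0% and 4.35% of all genes), limma-voom 0 and 0 (0% and 4.24%) and DESeq2 0 and 0 (0.0353% and 3.3%). In 0 of the 51 members did the 4 Kat6a+/- values lie all above or all below the 4 WT values, against 2.62% of all tested genes, 1.09% with Kat6a+/- above and 1.53% with Kat6a+/- below. For the comparison made by the authors, the authors' deposited table lists 605 genes, and 0 of them are members. The 605 genes are 1.96% of the 30875 genes with a read, a wider set than the 14159 tested. The rule by which they were listed is not stated here, so this share is not at a threshold known to be like those above.

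The intervals show how large a difference these libraries leave room for. The median log2 fold change of the 49 members was 0.01, beside 0.001 over all tested genes, and single values ran from -0.07 for Kdm8 to 0.13 for Dot1l. The 95% intervals of the members lay between -0.34 and 0.33, and each of the 49 excluded the point estimate of -0.36 for Kat6a. The interval of Kat6a itself, -0.52 to -0.20, overlapped some of them, such as that of Kdm8 from -0.34 to 0.21. For 30 members, 61.2%, the whole interval lay within 0.2 of 0 on the log2 scale, a 1.149-fold change, where 39.8% of all tested genes did so. Within 0.4 lay 49 members, 100%, beside 82.7% of all tested genes. Members had a median within-group SD of 0.08 on the log2 scale, against 0.11 over all tested genes. All tested genes, of which 12423 were protein-coding, were not matched to the members in length or level. The part of length and level in these comparisons was not tested.

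More members had a positive than a negative sign, 32 against 17, so that 65.3% were higher in Kat6a+/- where 50.6% of all tested genes were. With every library scaled to the same sum of protein-coding FPKM the split was 39 higher and 10 lower; under that scaling 57.1% of all tested genes were higher and their median log2 fold change was 0.013. Without WT replicate 3, the library with the lowest mean score of the members (-0.05 on the log2 scale), the unscaled split was 26 higher and 23 lower, the most even split when 1 library was left out. Without WT replicate 4 it was 37 higher and 12 lower, the most uneven. Over the 8 left-out libraries 48.5% to 51.5% of all tested genes were higher.

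**Figure D1:**
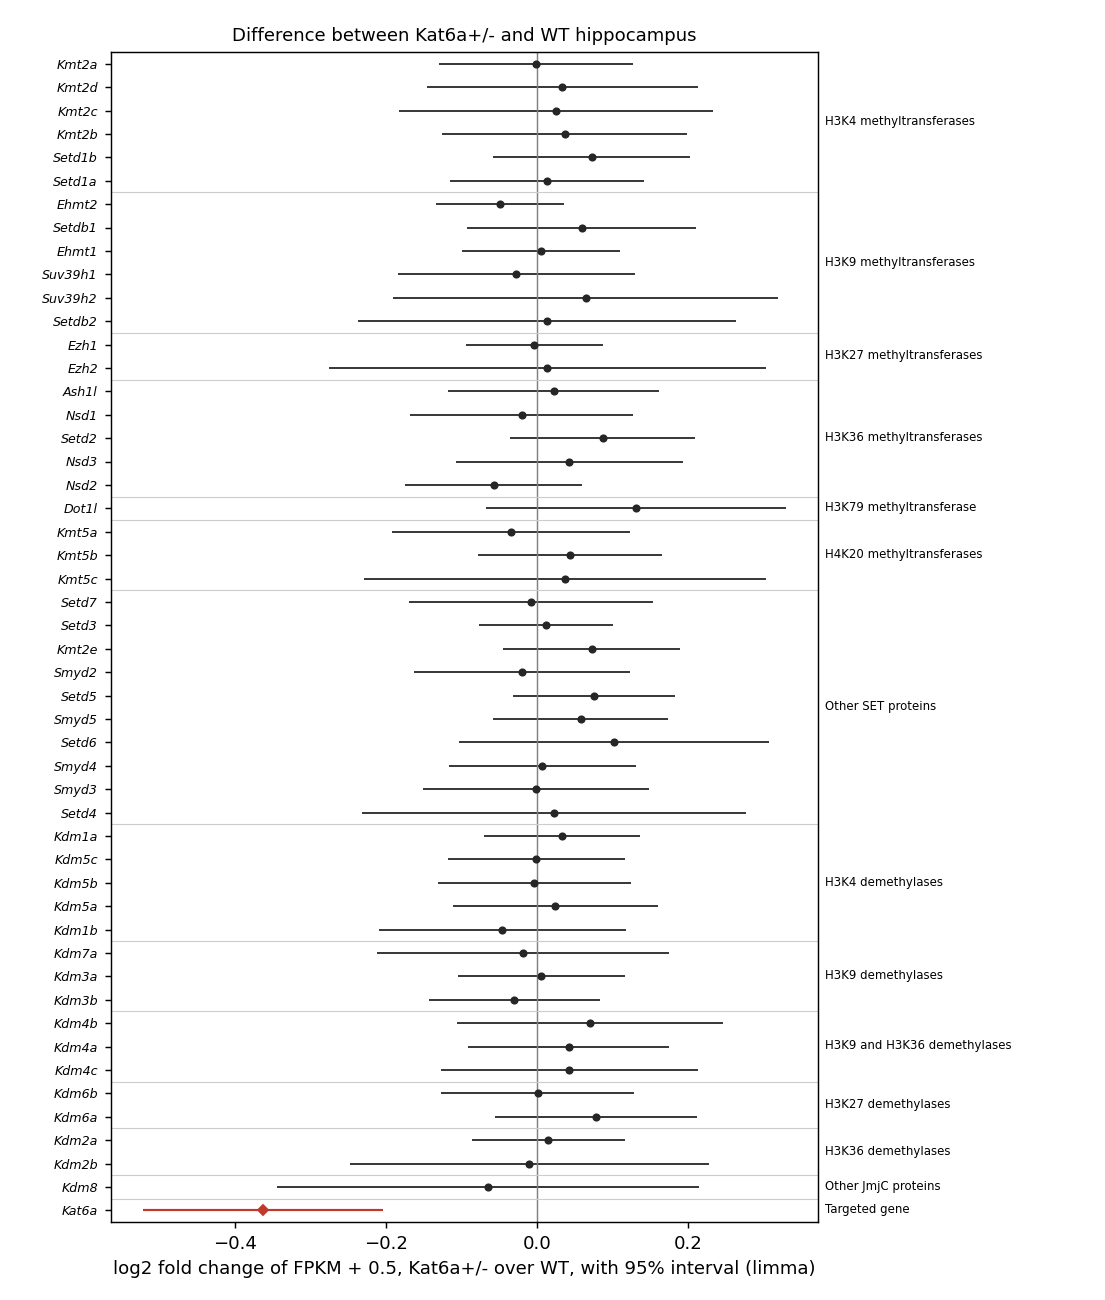
Log2 fold change of FPKM + 0.5, Kat6a+/- over WT, for the 49 tested genes by role, with Kat6a in red at the bottom; points are limma estimates and bars their 95% intervals over 4 and 4 libraries. Every interval of a family gene includes 0, while that of Kat6a runs from -0.52 to -0.20.

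The family was expressed over a wide range of levels. Mean levels over the 8 libraries ran from 0.350 FPKM for Smyd1 to 39.0 FPKM for Ehmt2, with a median of 5.58 FPKM beside 6.13 FPKM for the 12423 tested protein-coding genes. Above 10 FPKM lay 11 members, 31 lay between 2 and 10 FPKM, and 9 at or below 2 FPKM. The sum over the 51 genes was 358.4 to 380.0 FPKM in a library. Methyltransferase-side genes made 70.6% of it and demethylase-side genes 29.4%. The exonic length in the table, by which the authors divided the reads, had a median of 7440 bases in the family and 4491 bases in the tested protein-coding genes. Members lie on 20 chromosomes, with 7 on chromosome 6, 6 on chromosome 5 and 3 on the X.

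**Figure D2:**
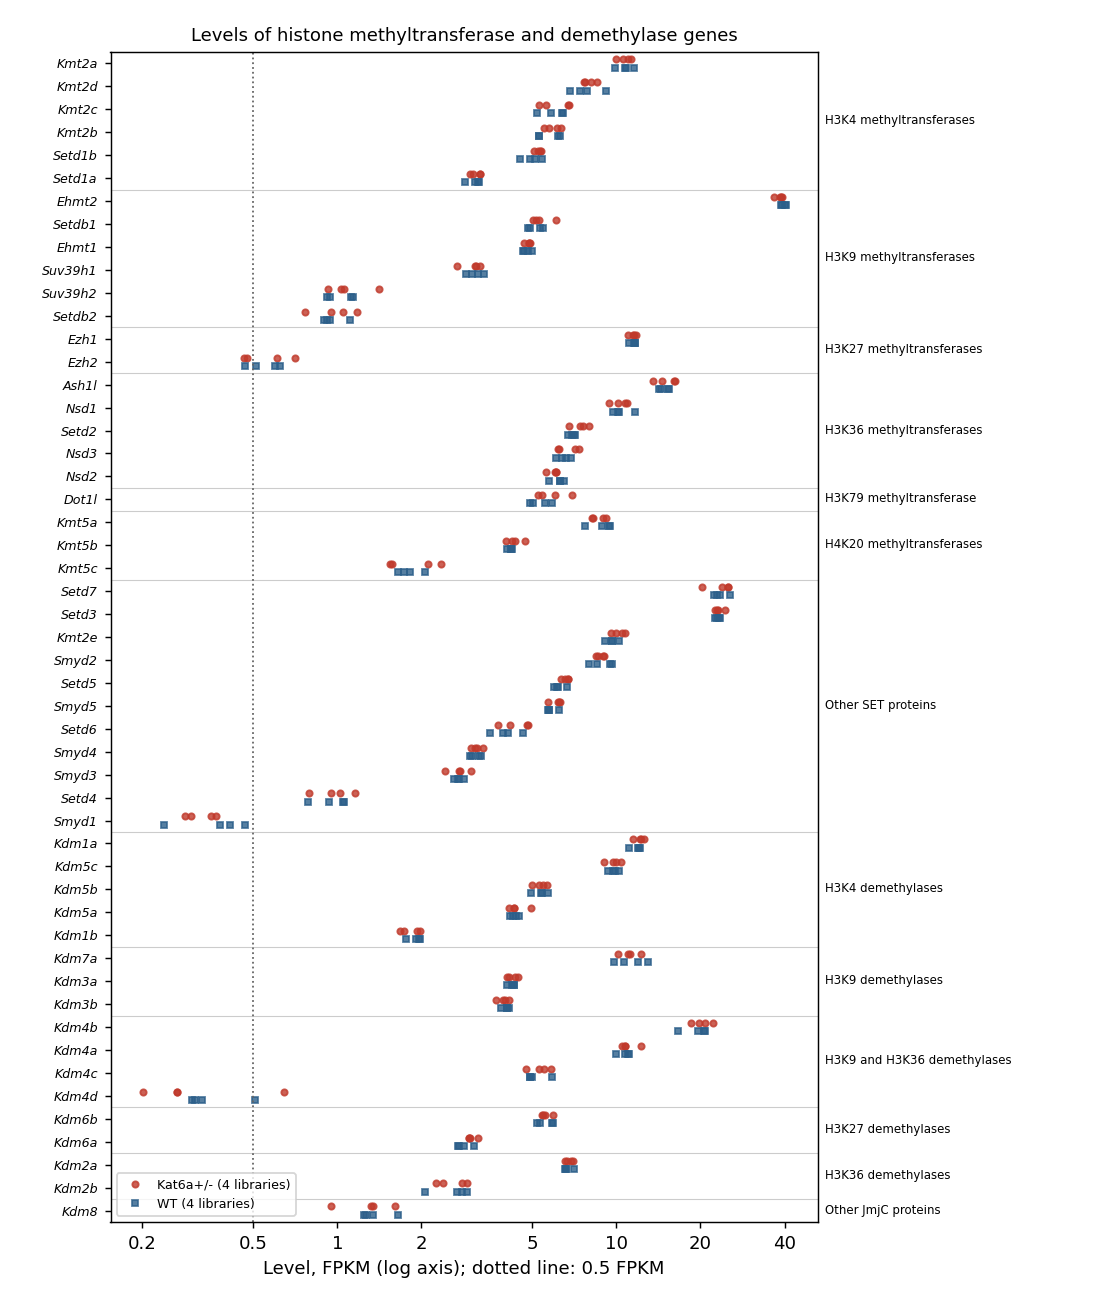
Level of each of the 51 genes in each library, in FPKM on a log axis, with Kat6a+/- libraries as red circles above the blue squares of the WT libraries; the dotted line is the minimum of 0.5 FPKM. The 2 genotypes overlap in every gene, and Ehmt2 stands highest at 36.5 to 40.3 FPKM.

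Promoter sequence was available in RefSeq tables of build GRCm38.p6 for 38 of the 51 genes, as 50 windows of 300 bases, 250 before and 50 after an annotated start. The windows were rich in CpG. They had a median of 64.0% G and C and 28 CpG, against 61.0% and 20 in 12607 windows of tested protein-coding genes and 52.7% and 7 in all 32851 windows of the table. An observed to expected CpG ratio over 0.6 together with over 50% G and C was found in 84.0% of the member windows, beside 65.6% and 33.3%. These are descriptions of the windows, and windows of the same gene can overlap. Printed here are those of Ehmt2, the highest member, of Ezh1 and Ezh2, the most unequal pair, and of Dot1l, the member with the largest fold change. They are written from 5′ to 3′ on the gene's strand with each CpG in capitals. They lie at chr17:34898224-34898523 on the plus strand (Ehmt2, 28 CpG), chr11:101226414-101226713 on the minus strand (Ezh1, 23 CpG), chr6:47594981-47595280 on the minus strand (Ezh2, 31 CpG) and chr10:80754953-80755252 on the plus strand (Dot1l, 49 CpG). The start used for Ezh2 lies 311 bases inside the gene as the deposited table gives it.
Ehmt2: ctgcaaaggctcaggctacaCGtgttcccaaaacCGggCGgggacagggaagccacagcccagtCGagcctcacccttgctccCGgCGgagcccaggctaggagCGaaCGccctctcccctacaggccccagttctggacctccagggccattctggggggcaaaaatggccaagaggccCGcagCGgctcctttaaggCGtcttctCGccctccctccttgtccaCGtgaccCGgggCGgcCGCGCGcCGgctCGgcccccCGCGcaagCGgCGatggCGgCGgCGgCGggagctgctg
Ezh1: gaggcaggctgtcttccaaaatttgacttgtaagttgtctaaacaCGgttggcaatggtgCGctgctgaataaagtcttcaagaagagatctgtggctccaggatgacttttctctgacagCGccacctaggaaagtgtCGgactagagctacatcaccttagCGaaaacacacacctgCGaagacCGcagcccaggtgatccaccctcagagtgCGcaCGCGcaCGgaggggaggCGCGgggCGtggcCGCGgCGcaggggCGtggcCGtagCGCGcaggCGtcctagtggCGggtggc
Ezh2: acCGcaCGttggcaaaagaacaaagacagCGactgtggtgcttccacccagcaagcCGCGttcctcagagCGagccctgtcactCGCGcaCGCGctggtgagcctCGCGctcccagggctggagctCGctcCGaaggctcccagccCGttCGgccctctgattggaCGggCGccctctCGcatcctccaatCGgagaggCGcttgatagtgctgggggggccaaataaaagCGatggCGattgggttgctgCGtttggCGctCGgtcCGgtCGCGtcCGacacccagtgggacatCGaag
Dot1l: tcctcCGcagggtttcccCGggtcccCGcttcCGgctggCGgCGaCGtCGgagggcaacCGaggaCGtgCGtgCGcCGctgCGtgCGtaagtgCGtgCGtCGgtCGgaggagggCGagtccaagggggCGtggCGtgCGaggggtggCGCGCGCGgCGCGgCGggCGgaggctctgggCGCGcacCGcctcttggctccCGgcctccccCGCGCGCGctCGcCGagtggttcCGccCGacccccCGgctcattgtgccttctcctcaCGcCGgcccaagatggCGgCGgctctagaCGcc

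A search of both strands for fixed letter strings set the member windows beside all others. The ETS string CCGGAAG was found in 14.0% of member windows, 16.3% of tested protein-coding windows and 8.86% of all windows. AAGATGGC, a YY1 string, was found in 10%, 4.21% and 2.75%, in the windows of Dot1l, Kdm5c, Smyd5, Suv39h1 and Suv39h2. The GC box GGGCGG was found in 70%, 62.7% and 35.7%, and CCAAT in 44.0%, 37.4% and 37.4%. GCGCATGC, an NRF1 string, and the cyclic AMP response element TGACGTCA were each in 2.0% of member windows, beside 5.01% and 2.98% of tested protein-coding windows and 2.71% and 1.79% of all windows. The E2F strings TTTGGCGC and TTTCCCGC occurred once each, in the windows of Ezh2 and Kmt5c, and are found in 0.865% and 1.82% of tested protein-coding windows and in 0.514% and 1.07% of all windows. TATAAA was in the window of Smyd1 alone (2.0% of member windows, 6.82% of tested protein-coding windows and 13.6% of all windows). A match is only a match of letters.

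The H3K4 methyltransferases are the catalytic subunits of COMPASS-like complexes, which share Wdr5, Rbbp5, Ash2l and Dpy30. The 6 genes summed to 39.1 ± 1.54 FPKM in Kat6a+/- and 38.3 ± 2.69 FPKM in WT (SD, n = 4 each), and 5 of them were nominally higher, with a median log2 fold change of 0.03, which was -0.02 without WT replicate 3. Kmt2a, which encodes MLL1, was the highest of them. It measured 9.98, 10.6, 11.3 and 11.0 FPKM in Kat6a+/- hippocampi, against 10.7, 10.8, 9.88 and 11.5 FPKM in WT hippocampi. The lowest and the highest of these 8 values were both WT. Setd1b, a catalytic subunit of the SET1 complexes, measured 5.06, 5.37, 5.24 and 5.32 FPKM in Kat6a+/-, against 5.12, 4.88, 4.51 and 5.39 FPKM in WT. WT replicate 4 held the highest value, so the genotypes overlapped. Setd1b had a log2 fold change of 0.07 ± 0.06 (SE), with an interval from -0.06 to 0.20 and an exact permutation p of 0.257. It was 0.03 without WT replicate 3 and 0.11 without WT replicate 4. Kmt2d and Kmt2c, which methylate enhancers, had means of 7.97 and 6.09 FPKM in Kat6a+/-, against 7.81 and 5.96 FPKM in WT.

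Among the H3K9 methyltransferases Ehmt2 stood far above the rest. It encodes G9a, which together with GLP, the product of Ehmt1, places mono- and dimethylation on H3K9. The gene measured 39.0, 36.5, 38.5 and 39.2 FPKM in Kat6a+/- libraries, against 39.1, 40.3, 38.8 and 40.3 FPKM in WT libraries. Kat6a+/- replicate 2 was the lowest library, and the values of Kat6a+/- replicates 1 and 4 lay among those of WT. The mean was 38.3 ± 1.2 FPKM in Kat6a+/- and 39.6 ± 0.820 FPKM in WT (SD, n = 4 each). The log2 fold change was -0.05 ± 0.04 (SE) with an interval from -0.13 to 0.04, and the exact permutation p was 0.143. Leaving out Kat6a+/- replicate 2 gave -0.03. Suv39h1 and Suv39h2, which place H3K9 trimethylation on pericentric heterochromatin, had means of 3.05 and 1.10 FPKM in Kat6a+/-, against 3.11 and 1.03 FPKM in WT. Setdb1, which works with the corepressor Trim28 on silenced retroelements, averaged 5.37 ± 0.464 FPKM in Kat6a+/- and 5.13 ± 0.320 FPKM in WT. Together the 6 genes summed to 53.6 ± 0.954 FPKM in Kat6a+/- and 54.6 ± 0.867 FPKM in WT.

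Ezh1 and Ezh2 are alternative catalytic subunits of the Polycomb complex PRC2, which methylates H3K27; Ezh2 is known mainly from dividing cells and Ezh1 from cells that have left the cycle. Ezh1 measured 11.5, 11.7, 11.0 and 11.6 FPKM in Kat6a+/-, against 11.6, 11.1, 11.7 and 11.6 FPKM in WT. The 8 values spanned less than 1 FPKM. Ezh2 measured 0.707, 0.608, 0.473 and 0.464 FPKM in Kat6a+/-, against 0.622, 0.599, 0.467 and 0.513 FPKM in WT, from 54 to 136 reads. Kat6a+/- held both the highest and the lowest value of Ezh2.

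The H3K36 methyltransferases summed to 45.4 ± 2.97 FPKM in Kat6a+/- and 44.9 ± 1.66 FPKM in WT. Ash1l, a Trithorax-group enzyme that dimethylates H3K36, was the highest, with 13.5, 14.6, 16.1 and 16.2 FPKM in Kat6a+/- and 14.2, 15.4, 14.4 and 15.3 FPKM in WT. The Kat6a+/- libraries spread around the WT libraries on both sides. Setd2, which places H3K36 trimethylation behind RNA polymerase II, had the smallest p of the family in limma, while Dot1l had a smaller one in edgeR and DESeq2 and Setd5 a smaller permutation p. It measured 6.75, 7.99, 7.57 and 7.40 FPKM in Kat6a+/- hippocampi, against 7.11, 6.94, 6.72 and 7.03 FPKM in WT hippocampi. Kat6a+/- replicates 2, 3 and 4 lay above every WT library, and Kat6a+/- replicate 1 lay below 3 of them. For Setd2 the log2 fold change was 0.09 ± 0.05 (SE), with an interval from -0.04 to 0.21, p = 0.144 in limma before adjustment and an exact permutation p of 0.143. It ran from 0.05 without Kat6a+/- replicate 2 to 0.13 without Kat6a+/- replicate 1, with an adjusted p of 0.886 in limma in that highest case and 0.968 to 0.9999 in the others. Nsd1, Nsd2 and Nsd3, which dimethylate H3K36, had means of 10.3, 5.93 and 6.71 FPKM in Kat6a+/-, against 10.4, 6.20 and 6.49 FPKM in WT.

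Dot1l, the H3K79 methyltransferase, had the largest fold change of the family. Its values were 6.93, 6.01, 5.24 and 5.40 FPKM in Kat6a+/- replicates 1 to 4, against 5.85, 5.54, 4.89 and 5.01 FPKM in WT replicates 1 to 4. In both genotypes replicates 1 and 2 were the higher pair, and the genotypes overlapped. The log2 fold change was 0.13 ± 0.09 (SE), with an interval from -0.07 to 0.33 and an exact permutation p of 0.257. It was 0.06 to 0.18 when each library was left out in turn. Among the H4K20 methyltransferases Kmt5a, which places the first methyl group during the cell cycle, was the highest. It measured 8.96, 8.19, 8.23 and 9.21 FPKM in Kat6a+/-, against 7.74, 8.87, 9.41 and 9.51 FPKM in WT, and the lowest and the highest values were both WT. Kmt5b and Kmt5c, which add the further methyl groups, had means of 4.32 and 1.89 FPKM in Kat6a+/-, against 4.17 and 1.81 FPKM in WT.

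The remaining SET proteins act largely outside histones or have no settled substrate. They held 24.2% of the family's FPKM, the largest share of any role. Setd7, which monomethylates H3K4 and other proteins, measured 20.2, 23.9, 25 and 25.1 FPKM in Kat6a+/-, against 22.9, 22.4, 23.6 and 25.6 FPKM in WT. Kat6a+/- replicate 1 was the lowest of the 8 libraries. Setd3, a histidine methyltransferase of actin, averaged 23.2 ± 0.830 FPKM in Kat6a+/- and 23.0 ± 0.405 FPKM in WT (SD, n = 4 each). Setd5, a chromatin protein whose human gene is mutated in intellectual disability, measured 6.72, 6.35, 6.72 and 6.56 FPKM in Kat6a+/-, against 6.64, 5.96, 6.17 and 6.14 FPKM in WT. WT replicate 1 lay among the Kat6a+/- libraries and the other WT libraries below them. Setd5 had a log2 fold change of 0.08 ± 0.05 (SE), with an interval from -0.03 to 0.18 and an exact permutation p of 0.0857.

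Kmt2e, a PHD and SET protein without known methyltransferase activity of its own, measured 9.57, 9.98, 10.7 and 10.5 FPKM in Kat6a+/-, against 10.2, 9.66, 9.12 and 9.65 FPKM in WT. Kat6a+/- replicates 3 and 4 lay above every WT library. For Kmt2e the log2 fold change was 0.07 ± 0.05 (SE), with an interval from -0.04 to 0.19 and an exact permutation p of 0.2. It was 0.05 without Kat6a+/- replicate 3 or WT replicate 3. Setd6, which methylates the NF-kB subunit RelA, measured 4.80, 4.77, 4.16 and 3.77 FPKM in Kat6a+/-, against 3.54, 4.62, 4.09 and 3.92 FPKM in WT. Its groups overlapped over most of their range, and the log2 fold change was 0.10 ± 0.09 (SE), with an interval from -0.10 to 0.31 and an exact permutation p of 0.343. It was 0.05 without WT replicate 1, 0.06 without Kat6a+/- replicate 1 or 2, and 0.16 without Kat6a+/- replicate 4 or WT replicate 2. Smyd1, known from heart and skeletal muscle, measured 0.284 to 0.366 FPKM in Kat6a+/- and 0.240 to 0.468 FPKM in WT, from 18 to 47 reads. Its gene overlaps Krcc1, at 5.49 FPKM, on the opposite strand.

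On the demethylase side, Kdm1a led the H3K4 enzymes. It encodes LSD1, the catalytic subunit of the CoREST corepressor. Its values were 12.2, 11.5, 12.2 and 12.5 FPKM in Kat6a+/-, against 11.1, 12.1, 11.9 and 12.1 FPKM in WT, with the lowest value in WT replicate 1. Kdm5c, an X-linked demethylase of H3K4 trimethylation, measured 9.03, 9.70, 9.99 and 10.4 FPKM in Kat6a+/-, against 9.73, 9.85, 9.34 and 10.2 FPKM in WT. The means, 9.78 ± 0.580 FPKM in Kat6a+/- and 9.78 ± 0.346 FPKM in WT (SD, n = 4 each), were the same to 3 digits. Its autosomal relatives Kdm5b and Kdm5a had means of 5.34 and 4.41 FPKM in Kat6a+/-, against 5.36 and 4.32 FPKM in WT. The 5 H3K4 demethylases summed to 33.5 ± 1.30 FPKM in Kat6a+/- and 33.2 ± 0.924 FPKM in WT.

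Kdm7a, which removes methyl groups from H3K9 and H3K27, was the highest of the H3K9 demethylases outside the Kdm4 genes. It measured 10.1, 11.2, 12.3 and 11.0 FPKM in Kat6a+/-, against 9.81, 11.9, 10.7 and 13.0 FPKM in WT. Both extremes were WT libraries. Kdm3a and Kdm3b, which act on mono- and dimethylated H3K9, had means of 4.23 and 3.93 FPKM in Kat6a+/-, against 4.21 and 4.02 FPKM in WT. Kdm4b, an enzyme for trimethylated H3K9 and H3K36, was the highest demethylase of all. It measured 19.8, 18.5, 20.7 and 22.2 FPKM in Kat6a+/-, against 16.6, 20.6, 19.5 and 20.7 FPKM in WT. WT replicate 1 was the lowest library and Kat6a+/- replicate 4 the highest. Its relatives Kdm4a and Kdm4c had means of 11.0 and 5.34 FPKM in Kat6a+/-, against 10.7 and 5.17 FPKM in WT. Kdm4d, known in the mouse from testis, measured 0.201 to 0.642 FPKM in Kat6a+/- and 0.300 to 0.508 FPKM in WT, from 10 to 32 reads.

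The H3K27 demethylases are Kdm6a, an X-linked subunit of the KMT2C and KMT2D complexes that escapes X inactivation, and Kdm6b, an inducible enzyme. Kdm6a measured 2.95, 2.99, 2.96 and 3.20 FPKM in Kat6a+/-, against 2.74, 3.09, 2.70 and 2.83 FPKM in WT. WT replicate 2 lay above 3 of the Kat6a+/- libraries and the other WT libraries below all of them. For Kdm6a the log2 fold change was 0.08 ± 0.06 (SE), with an interval from -0.06 to 0.21 and an exact permutation p of 0.143. Kdm6b measured 5.91, 5.42, 5.55 and 5.44 FPKM in Kat6a+/-, against 5.86, 5.94, 5.19 and 5.34 FPKM in WT. Kdm2a, a CpG-binding demethylase of H3K36, measured 6.54, 6.85, 6.98 and 6.67 FPKM in Kat6a+/-, against 6.58, 6.57, 6.55 and 7.02 FPKM in WT. Both of these genes had their WT values on either side of most Kat6a+/- values. Kdm2b, which brings a variant Polycomb complex to CpG islands, averaged 2.58 ± 0.314 FPKM in Kat6a+/- and 2.61 ± 0.380 FPKM in WT. Kdm8, a JmjC protein whose histone activity is disputed, measured 0.945, 1.32, 1.34 and 1.61 FPKM in Kat6a+/-, against 1.35, 1.65, 1.27 and 1.25 FPKM in WT, from 54 to 67 reads. The 17 demethylase genes summed to 109.1 ± 4.56 FPKM in Kat6a+/- and 107.4 ± 5.40 FPKM in WT, and the 34 methyltransferase genes to 260.8 ± 6.07 FPKM and 258.6 ± 5.31 FPKM.

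Many of these enzymes come as pairs of paralogs, and FPKM, being per length, allows both genes of a pair to be set side by side within a library. Of 13 pairs the most unequal was Ezh1 to Ezh2, at a ratio of 20.9 ± 3.96 in Kat6a+/- and 21.2 ± 3.22 in WT (SD, n = 4 each). Ehmt2 to Ehmt1 followed at 7.97 ± 0.312 in Kat6a+/- and 8.29 ± 0.375 in WT, then Kdm1a to Kdm1b at 6.65 ± 0.618 and 6.23 ± 0.454, and Setdb1 to Setdb2 at 5.59 ± 1.05 and 5.35 ± 0.559. The most even pair was Kdm3a to Kdm3b, at 1.08 ± 0.0455 in Kat6a+/- and 1.05 ± 0.0449 in WT. Between these lay Suv39h1 to Suv39h2 at 2.85 in Kat6a+/- and 3.05 in WT, Kdm2a to Kdm2b at 2.64 and 2.60, and Kmt5b to Kmt5c at 2.38 and 2.32. Kdm6b to Kdm6a stood at 1.85 in Kat6a+/- and 1.97 in WT, Kmt2a to Kmt2b at 1.82 and 1.88, and Setd1b to Setd1a at 1.68 and 1.60. Kmt2d to Kmt2c stood at 1.32 in Kat6a+/- and 1.31 in WT, and Kdm5b to Kdm5a at 1.22 and 1.24. In all 13 pairs the genotypes overlapped, and 0 had an exact permutation p under 0.05 (lowest p = 0.229, adjusted over the 13 pairs 0.929).

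**Figure D3:**
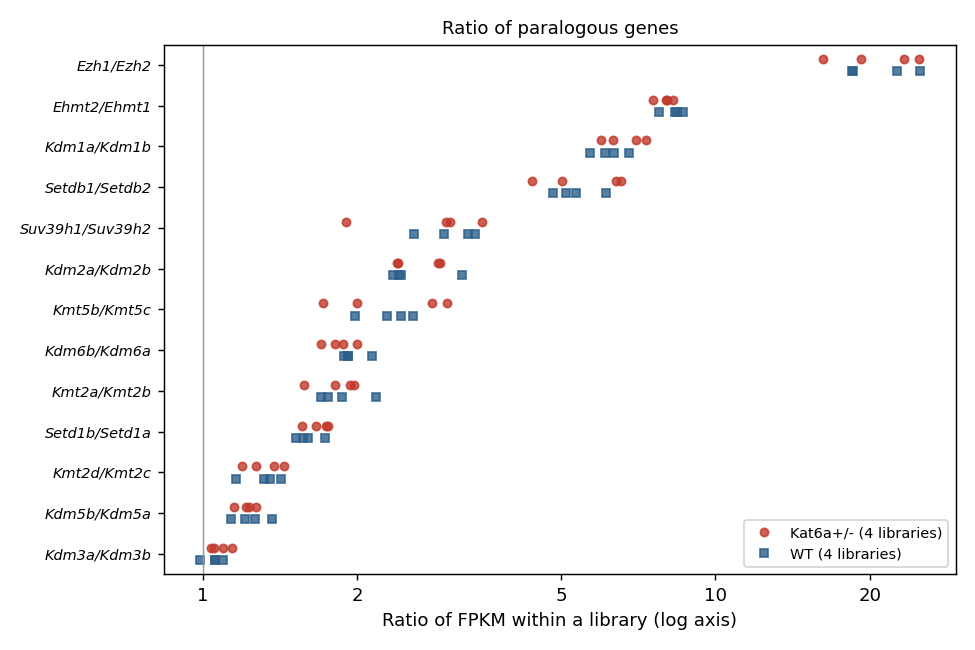
Ratio of the FPKM of paralogous genes within each library, on a log axis, with Kat6a+/- libraries as red circles above the blue squares of the WT libraries. The WT means run from 21.2 for Ezh1 to Ezh2 down to 1.05 for Kdm3a to Kdm3b, and the genotypes overlap in each pair.

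Libraries of the same genotype differed in these genes. The first principal component of the 49 members held 44.8% of their variance over the 8 libraries, with scores of 0.69, 0.19, -0.32 and -0.44 in Kat6a+/- replicates 1 to 4 and 0.31, -0.14, 0.01 and -0.29 in WT replicates 1 to 4. Kat6a+/- replicate 1 stood at its positive end. That library was the highest of the 8 for 9 members and the lowest for 13, together 44.9% of the members, where it was extreme in 27.5% of all tested genes. It was highest for Dot1l, Kmt2b, Setd1a, Setd4, Setd6, Smyd5, Ezh2, Suv39h2 and Kmt5c. Kmt5c, for example, measured 2.34 FPKM there and 1.55 to 2.11 FPKM in the other Kat6a+/- libraries, and Suv39h2 1.41 FPKM against 0.924 to 1.05 FPKM. Among the genes lowest there were Setd7, Ash1l, Nsd1, Nsd2, Kdm5a, Kdm5c, Kmt5b and Kdm8. The exonic length had a median of 5849 bases in the 9 genes highest in this library and 10813 bases in the 13 lowest. The same order was seen in all tested protein-coding genes, with 3879 bases in the 1505 genes highest there and 6393 bases in the 1899 lowest. This library was also the deepest, and the part of length and depth in these values was not tested. WT replicate 3 was the lowest library for 12 members and WT replicate 1 for 10, where they were lowest for 1558 and 2571 of the 14159 tested genes. As highest or lowest library, WT replicate 3 was extreme in 28.6% of members and 23.8% of all tested genes. WT replicate 1 was extreme in 22.4% and 34.4%.

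**Figure D4:**
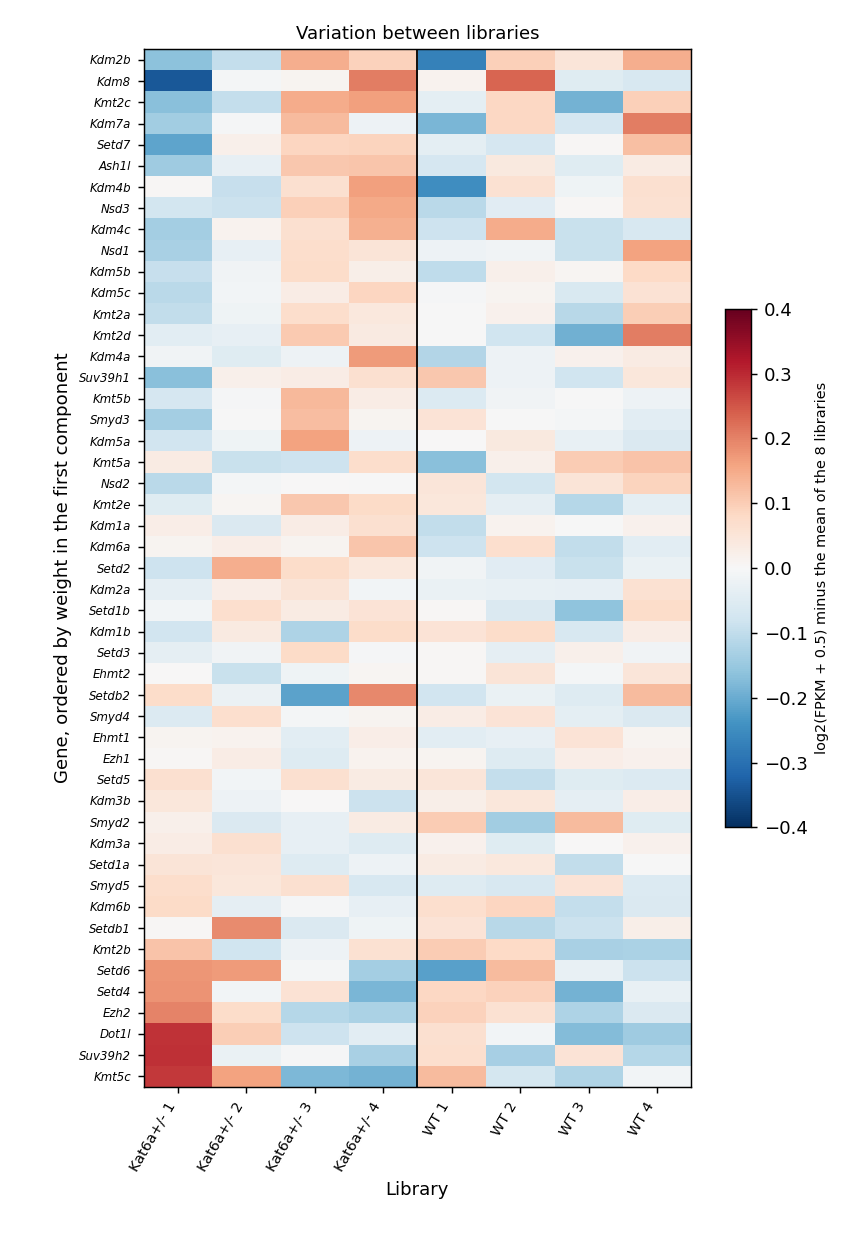
Deviation of each of the 49 tested genes from its mean over the 8 libraries, in log2(FPKM + 0.5), red above and blue below, with genes ordered by their weight in the first principal component and Kat6a+/- libraries left of WT libraries. Kat6a+/- replicate 1 lies below the mean in Kdm2b and Kdm8 and above it in Suv39h2 and Kmt5c, though Kdm2b is lowest in WT replicate 1. No block of genes separates the genotypes.

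The partners of these enzymes were read from lists of complex subunits and related genes. Limma called 0 of their genes. Epop and Kat6a had an unadjusted p under 0.05 in limma, where 4.41% of all tested genes lay under it. The edgeR fit also called 0, and DESeq2 called Kat6a. Of 12 COMPASS subunits 6 were nominally higher and 6 lower in Kat6a+/-, with a median log2 fold change of 0.01. Those with the smallest p were Ncoa6 at 9.10 ± 0.583 FPKM in Kat6a+/- and 8.63 ± 0.397 FPKM in WT, Dpy30 at 10.2 and 9.55 FPKM and Psip1 at 33.4 and 32.4 FPKM. Of 9 tested PRC2 subunits 5 were higher and 4 lower. Epop, a PRC2 subunit that also binds elongin, had the one unadjusted p under 0.05 of that list. It measured 16.5, 15.8, 16.6 and 16.2 FPKM in Kat6a+/-, against 22.8, 19.3, 16.3 and 17.5 FPKM in WT, and WT replicate 3 lay among the Kat6a+/- libraries. Epop had a log2 fold change of -0.20 ± 0.09 (SE), with an unadjusted p of 0.0435 and an adjusted p of 0.9998 in limma. Rbbp7 and Mtf2 followed at 45.6 and 4.91 FPKM in Kat6a+/-, against 43.7 and 4.5 FPKM in WT.

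Of 11 CoREST subunits 7 were higher and 4 lower. Zmym3, a zinc finger subunit on the X chromosome, measured 13.5, 13.7, 13.9 and 13.9 FPKM in Kat6a+/-, against 12.7, 13.5, 12.8 and 12.8 FPKM in WT. The genotypes of Zmym3 did not overlap, though the lowest Kat6a+/- library and WT replicate 2 lay next to each other. Among the tested genes of the partner lists only Zmym3 and Kat6a had no overlap, beside 2.62% of all tested genes. The log2 fold change of Zmym3, 0.09 ± 0.04 (SE), had an adjusted p of 0.9998 in limma. Rcor2 measured 4.09 ± 0.165 FPKM in Kat6a+/- and 3.68 ± 0.507 FPKM in WT, and Zmym2 13.1 ± 0.679 FPKM and 12.4 ± 0.592 FPKM. Of 10 H3K9 cofactors and readers 6 were higher and 4 lower, with Morc2a, Pphln1 and Cbx1 at 7.06, 8.28 and 8.02 FPKM in Kat6a+/-, against 6.58, 8.5 and 8.16 FPKM in WT. Of 9 protein arginine methyltransferases 2 were higher and 7 lower, with a median of -0.04. Prmt2, Prmt3 and Prmt5 led that list at 18.2, 2.94 and 13.6 FPKM in Kat6a+/-, against 18.8, 3.15 and 14.1 FPKM in WT.

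Of 8 further JmjC genes 3 were higher and 5 lower, led by Hif1an, the asparagine hydroxylase of HIF, at 7.27 ± 0.442 FPKM in Kat6a+/- and 7.79 ± 0.254 FPKM in WT. Phf2 and Jmjd6 followed at 11.0 and 3.54 FPKM in Kat6a+/-, against 11.5 and 3.80 FPKM in WT. Of 8 tested PRDM and other SET genes 6 were higher and 2 lower, with Prdm16, Prdm8 and Prdm2 at 1.65, 11.9 and 12 FPKM in Kat6a+/-, against 1.81, 11.3 and 11.8 FPKM in WT. The KAT6A complex had 5 higher and 3 lower genes of 8, Kat6a itself among the lower. Kat6b, the paralog of Kat6a, measured 3.71 ± 0.0738 FPKM in Kat6a+/- and 3.48 ± 0.187 FPKM in WT, and Brd1, a BRPF-family scaffold, 7.90 ± 0.298 FPKM and 7.54 ± 0.432 FPKM, both with overlap.

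The summed levels of cell type markers also varied between libraries. Limma called 0 of 64 tested markers. It had 11, 17.2%, at an unadjusted p under 0.05, where 4.41% of all tested genes lay under it. The marker lists were chosen with earlier results of these data known. Their counts, shares and scores are therefore descriptions and not tests. Interneuron markers were nominally lower in 10 of 10 genes, with a summed level of 378.6 to 412.8 FPKM in Kat6a+/- and 408.3 to 473.9 FPKM in WT. Their mean score per library, on the log2 scale, was -0.16 to -0.06 in Kat6a+/- and 0.06 to 0.15 in WT, without overlap. Over all the lists the genotypes did not overlap in 7 of the 64 markers, beside 2.62% of all tested genes. Lhx6, Reln, Calb2, the astrocyte marker Gjb6 and the endothelial marker Pecam1 were lower in every Kat6a+/- library than in any WT library. The endothelial marker Tek and Plekhg1, of the thalamic and cortical list, were higher in every Kat6a+/- library. Oligodendrocyte markers were nominally higher in 8 of 8, at 779.6 to 985.2 FPKM in Kat6a+/- and 648.0 to 947.0 FPKM in WT. Astrocyte markers were nominally lower in 7 of 8, at 758.8 to 850.8 FPKM in Kat6a+/- and 810.0 to 914.4 FPKM in WT. Markers of the principal neurons of the hippocampus summed to 553.0 to 626.0 FPKM in Kat6a+/- and 508.0 to 601.5 FPKM in WT, and those of microglia to 161.0 to 173.5 FPKM and 161.9 to 176.5 FPKM. Endothelial markers summed to 15.5 to 21.4 FPKM in Kat6a+/- and 17.6 to 19.6 FPKM in WT, and thalamic and cortical markers to 14.99 to 18.01 FPKM and 15.07 to 19.79 FPKM. Choroid plexus markers summed to 128 FPKM in Kat6a+/- replicate 2, of which Ttr made 119 FPKM, to 14.35 to 26.86 FPKM in the other Kat6a+/- libraries and to 12.44 to 21.2 FPKM in WT. In these lists 0 markers were at 0 in all libraries. Their part in the values of the family was not tested.

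Reads of overlapping genes limit a few values. Of the 51 genes 31 overlap another listed gene and 10 overlap one that was tested, in each case on the opposite strand, among them Ash1l with Dap3, Kdm1a with Luzp1, Kmt2e with Srpk2, Kdm2b with Rnf34 and Suv39h2 with Dclre1c. Whether counting used the strand is not given in the sources used here, so reads of these pairs cannot be assigned with certainty.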

How the data were processed

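Per the labels' protocols, total RNA of hippocampus was isolated with Trizol, cleared of DNA and made into NEBNext Ultra II libraries. The tools named in the submitters' processing notes are STAR 2.5, HTSeq and DESeq2, with GRCm38 (mm10); the sources used here give neither annotation release nor strand setting. The larger deposited table gives FPKM for each of 54532 genes in each library. The authors' deposited table of 605 genes also holds read counts, a normalised signal (counts over 1 size factor per library), log2 fold changes and p-values, per the file headers. Multiplied by gene length and 1 constant per library, 100% of the FPKM came out as whole reads within 0.01. These reads equal the deposited counts of the 605 genes, to which the constants were fitted. Whether a constant is a size factor or a total of the library was not tested. Summed over the listed genes, the libraries held 16462428 to 27875310 reads.

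The test was limma 3.58.1 (R 4.3.3) with a prior trend on log2(FPKM + 0.5), genotype alone, two-sided, over the 14159 genes averaging at least 0.5 FPKM, with Benjamini-Hochberg adjustment at 0.05. Fold changes on this scale understate those of low genes. Single genes and paralog ratios had exact permutation tests over the libraries. The edgeR 4.0.16 (quasi-likelihood), limma-voom and DESeq2 1.42.0 fits used the recovered reads. The main limma fit and the limma-voom, edgeR and DESeq2 fits were tested on simulated reads, with changes larger than any measured in the members or in Kat6a. Their power for changes as small as those measured was not tested, and fits with other settings were not simulated. Class medians and counts are descriptions. Named were Kat6a, the 8 members with the smallest limma p, the highest member of each role, Kdm5c and Kdm6a, both genes of each pair, members under the FPKM minimum, and up to 3 genes of the smallest p per partner list; further members, and the libraries singled out, were chosen after their values were seen. Members, lists and tests were chosen with earlier results of these data known.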

Additional observations from a re-analysis of the deposited data

Results flagged for a closer look

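In 102 groups of 4 libraries, 51 genes in each genotype, 8 groups (7.84%) had 1 library far from the other 3, with a gap, as a share of the group's range, above Dixon's 95% critical value; chance gives about 1 in 20. Kdm4a measured 12.3 FPKM in Kat6a+/- replicate 4, against 10.5 to 10.7 FPKM in the other Kat6a+/- libraries. Nsd2 measured 5.59 FPKM in Kat6a+/- replicate 1, against 6.03 to 6.07 FPKM in the others. Kdm6a measured 3.2 FPKM in Kat6a+/- replicate 4, against 2.95 to 2.99 FPKM. Kdm4d measured 0.642 FPKM in Kat6a+/- replicate 4, from 32 reads, against 0.201 to 0.267 FPKM in the other Kat6a+/- libraries, and 0.508 FPKM in WT replicate 2, from 24 reads, against 0.300 to 0.329 FPKM in the other WT libraries. Kdm2a measured 7.02 FPKM in WT replicate 4, against 6.55 to 6.58 FPKM in the other WT libraries. Smyd5 measured 6.21 FPKM in WT replicate 3, against 5.68 to 5.73 FPKM. Kdm4c measured 5.87 FPKM in WT replicate 2, against 4.9 to 5.0 FPKM. Kat6a+/- replicate 4 held 3 of the 8 values.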

How the results depend on the processing

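The alternatives were pseudocounts of 0.1 and 1, no filter or a mean of at least 1 FPKM, scaling to a common protein-coding sum or by TMM, limma-voom, edgeR, DESeq2, a replicate block, replicates 1 and 2 against 3 and 4 as a covariate, and leaving out each library. Of the values recomputed under these settings 754 kept direction and side of the threshold or stayed within their spread, 12 moved by more and 1 passed the threshold newly. Followed one by one were Kat6a and Setd2, Setd5, Dot1l, Kmt2e, Kdm6a, Ehmt2, Setd1b and Setd6, the members with the smallest limma p. None of these changed sign. Other members did: the split of 32 higher and 17 lower became 26 and 23 without WT replicate 3. It was 27 and 22 without Kat6a+/- replicate 4, and 39 and 10 with the common protein-coding sum. Of 22 median log2 fold changes, of the family, its roles and the partner lists, 14 changed sign when some library was left out; these 22 medians ran from -0.07 to 0.13 with all libraries. The count of called members was 0 throughout. The count at an unadjusted p under 0.05 was 1 with the replicate block (Dot1l, adjusted p = 0.883 in limma) and 1 with the covariate (Dot1l), where 5.44% and 5.45% of all tested genes lay under it; it ran from 0 to 1 when each library was left out (Setd2 without Kat6a+/- replicate 1, beside 5.49% of all tested genes, the highest of 3.64% to 5.49% over the left-out libraries). The labels do not say whether replicate numbers pair the libraries. Deviations of same-numbered libraries correlated at 0.166, -0.07, 0.07 and 0.01, and those of differently numbered libraries at -0.135 to 0.0909. Limma called 0 genes with and without the block, so its calls cannot show whether the numbers pair libraries. Members without overlap ran from 0 to 2 when a library was left out: Setd2 without Kat6a+/- replicate 1, Kdm1a without Kat6a+/- replicate 2, Setd5 without WT replicate 1, and Nsd2 and Kdm6a without WT replicate 2. Over these settings 4.59% to 6.19% of all tested genes had no overlap. Kat6a passed in DESeq2 (log2 fold change -0.38, adjusted p = 0.00639) and ran from -0.40 to -0.30 with libraries left out. Median log2 fold changes with libraries left out ran from -0.025 to 0.049 for the H3K9 methyltransferases, -0.051 to 0.042 for the H4K20 methyltransferases, 0.0089 to 0.044 for the other SET proteins and -0.049 to 0.024 for the further JmjC genes; why they moved was not tested. Depth limits Kdm4d, Smyd1, Ezh2, Setdb2, Kdm8, Suv39h2 and Setd4, which had libraries with under 100 reads.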
